A study of Mus musculus with 3 samples.

Results

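Gene expression in spleen T cells and natural killer (NK) cells was compared between 1 library from irradiated mice given hemp seed oil (IR_HSO) and 1 library from control mice. All genes that reached a level of 20 CPM, counts scaled to parts per 1e6, in the summed T cells or the summed NK cells of either library were taken, except immunoglobulin, haemoglobin and exocrine pancreas genes. That left 7234 of the 56980 genes in the files, 6502 of them measured in T cells and 6743 in NK cells. The control library came from wild-type mice with the treatment "no irradiation". The IR_HSO library came from wild-type mice that received 8.5 Gy and HSO, which the series title spells out as hemp seed oil. The remaining library, IR, came from wild-type mice with 8.5 Gy and a "colvent control", read here as a vehicle, and its levels stand beside the others for reference only. The labels used here give no time after irradiation, no dose, route or schedule of the oil, no age and no number of mice in a library. Spleens were ground to a suspension and sequenced with the 10x Genomics method, which tags each captured RNA with a unique molecular identifier (UMI). IR_HSO differed from control in both the irradiation and the oil, and the contributions of these treatments cannot be told apart in this comparison. With 1 library a side no replicate check and no test exist, and each 95% interval below covers counting error only.

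Ionising radiation breaks DNA, and the broken ends activate the transcription factor p53. In lymphocytes, p53 turns on genes that stop the cell cycle and genes that start apoptosis, and resting lymphocytes are among the cells most readily killed in this way. T cells carry the T cell receptor with its CD3 chains and fall into CD8 cells, which kill infected cells, CD4 cells, which direct other cells, and regulatory CD4 cells marked by the transcription factor Foxp3, which restrain responses. NK cells kill without an antigen receptor, read target cells through Ly49 and NKG2 receptors, and mature under the transcription factors Eomes and T-bet. Hemp seed oil is rich in polyunsaturated fatty acids, so lists of fatty acid and antioxidant genes were read beside lists of damage, survival and lymphocyte function.

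T cells were barcodes with at least 2 UMIs of Cd3d, Cd3e and Cd3g together and none of Cd79a and Cd79b. The control, IR and IR_HSO libraries held 2410, 7768 and 6608 such cells, with median depths of 5217, 3510 and 3510 UMIs. NK cells had at least 1 Ncr1 UMI and no UMI of the 3 Cd3 genes or Cd79a, which gave 256, 1494 and 1030 cells with median depths of 3914, 2878 and 3682 UMIs. In T cells all 9 T cell markers were detected in each library, with summed levels of 6538, 6414 and 5146 CPM, and B cell markers summed to 83.4, 20.1 and 17.4 CPM. All 9 NK cell markers were detected in NK cells, where they summed to 20869, 19049 and 13638 CPM. The libraries differed in quality: barcodes with 10% or more mitochondrial UMIs, which were left out, made up 3.75% in control, 4.76% in IR and 16.5% in IR_HSO. The ribosomal RNA gene Rn18s-rs5 took 3.04%, 1.12% and 4.72% of T cell UMIs. Pancreatic transcripts stood at 2.98, 3411 and 1339 CPM in T cells and at 5.60, 4590 and 11563 CPM in NK cells, and 3 NK cells held 93.0% of those in IR_HSO. Between 34 and 54 barcodes were shared by each pair of libraries. The part of these quality differences in the results was not tested.

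In T cells 477 of 6502 genes, or 7.34%, were at least 2-fold higher in IR_HSO than in control, and 81, or 1.25%, were at least 2-fold lower. In NK cells 330 of 6743 genes, or 4.89%, were at least 2-fold higher and 253, or 3.75%, at least 2-fold lower. Genes past 2-fold are called higher or lower below, and a gene's level always means its CPM within the summed cells of one gate. The direction of calls depended on how totals were scaled. Higher genes were 85.5% of the calls in T cells, 81.1% with some transcript classes out of the totals and 73.4% after centring on the median gene. In NK cells they were 56.6%, 76.2% and 66.7%. The classes were immunoglobulin, haemoglobin, pancreatic, mitochondrial, ribosomal protein and ribosomal RNA genes, called variable transcripts below. Taking them out raises every CPM, so genes that were under the 20 CPM limit can enter in that setting. On the genes of the main setting alone, the median log2 ratio moved by -0.06 in T cells and by 0.15 in NK cells. Ribosomal protein genes alone took 29.6% of T cell UMIs in control and 23.7% in IR_HSO, and 15.3% and 19.4% of NK cell UMIs. The median gene had a log2 ratio of 0.16 in T cells and -0.10 in NK cells, and every list median below is read against these.

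**Figure D1:**
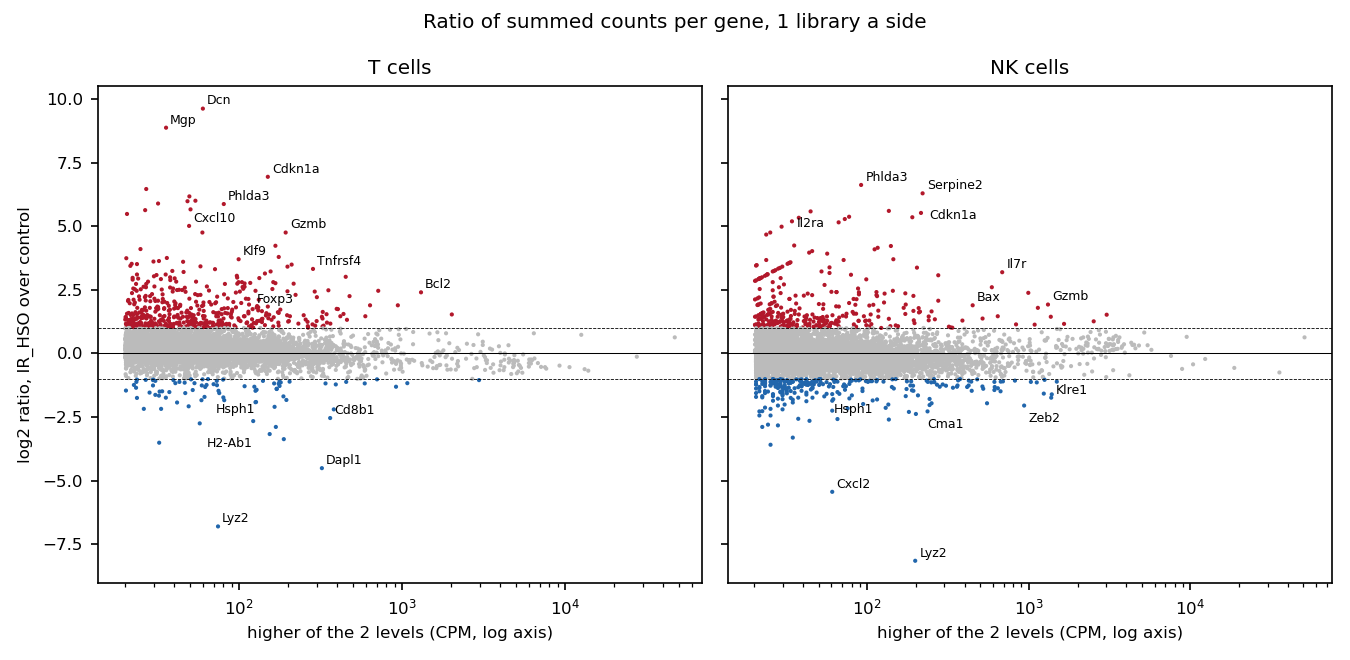
Log2 ratio of IR_HSO over control for each gene (y axis) against the higher of its levels in the 2 libraries in CPM (x axis, log scale), for T cells (left) and NK cells (right). Red points are at least 2-fold higher, blue points at least 2-fold lower, dashed lines mark 2-fold, and genes without counts in control are drawn with control set to 3 counts. Cdkn1a and Phlda3 lie near the top in both panels, while Dapl1 in T cells and Zeb2 and Klre1 in NK cells lie below the dashed lines.

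Most p53 targets were higher in T cells of IR_HSO. Of 23 p53 targets measured, 13 were higher and none lower, with a median log2 ratio of 1.33. Cdkn1a, the gene of the kinase inhibitor p21, was at 1.22 CPM in control, at 217 CPM in IR and at 150 CPM in IR_HSO, a ratio of IR_HSO to control of 123 (75.4 to 215). Phlda3, an inhibitor of the kinase Akt, was at 1.37, 105 and 80.5 CPM, a ratio of 58.5 (37.0 to 99). Both irradiated libraries were far above control for these genes. Zmat3, which encodes an RNA-binding protein, was at 11.7, 98.8 and 96.8 CPM, an 8.28-fold difference (7.03 to 9.81). Ccng1, the gene of cyclin G1, was at 54.4, 182 and 179 CPM, or 3.29-fold higher (3.04 to 3.56). Mdm2, the ubiquitin ligase that degrades p53, was at 45.5, 82.1 and 87.9 CPM and so stayed under 2-fold at 1.93 (1.76 to 2.12). Pmaip1, Xpc and Btg2 were also between the limits, with log2 ratios of 0.55, -0.04 and -0.25. The response was seen in many cells. After each cell was thinned to 1000 UMIs, Cdkn1a had a UMI in 0.0417% of control T cells (0.00106 to 0.232) and 12.2% of IR_HSO T cells (11.4 to 13.0), or 0.456% and 30.9% without thinning. In gated B cells of IR_HSO, where the median depth was 8415 UMIs, the thinned share was 2.53% (0.694 to 6.35). In these cells plasma cell markers summed to 32737 CPM and B cell markers to 1979 CPM, against 1923 and 11471 CPM in control. Immunoglobulin took 53.3% of their UMIs in IR_HSO, which lowers the thinned share of every other gene. Shares in B cells of IR_HSO, here and below, are therefore a lowered reference from a mix of B and plasma cells.

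The other damage lists divided. None of 13 genes of DNA damage sensing and repair reached 2-fold in either direction in T cells, and their median log2 ratio was 0.09. Atm, the kinase that senses double-strand breaks, was at 55.4, 52.4 and 59.0 CPM. Of 11 pro-apoptotic genes 6 were higher and none lower, with a median of 1.22. That median was 0.50 with variable transcripts out of the totals, where members newly past 20 CPM can enter the list, so the fall is not an effect of scaling alone. By subset it was 1.01 in CD4 Foxp3- cells, 1.12 in CD8 cells, 0.72 in Foxp3+ cells and 0.62 in the remaining T cells. Bax, which opens the outer mitochondrial membrane, was at 118, 508 and 397 CPM, or 3.37-fold higher (3.20 to 3.56). Bbc3, which encodes the p53-induced killer PUMA, was at 26.1, 105 and 103 CPM, or 3.95-fold higher (3.53 to 4.44). Bcl2l11, the gene of the killer BIM, was at 63.2, 129 and 158 CPM, or 2.50-fold higher (2.32 to 2.69).

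Some survival genes were also higher, though most members of both survival lists lay within 2-fold. Among 10 anti-apoptotic genes 4 were higher and none lower, with a median of 0.67. Bcl2, which blocks Bax and its relatives, was at 247 CPM in control, 1232 in IR and 1307 in IR_HSO, or 5.29-fold higher (5.10 to 5.48). Thinned shares of T cells with a Bcl2 UMI were 19.8% (18.3 to 21.5) in control and 62.7% (61.5 to 63.9) in IR_HSO, while the share in B cells of IR_HSO was 12.7% (7.91 to 18.9). Bcl2l1, the gene of Bcl-xL, was at 9.09, 31.4 and 31.1 CPM, or 3.42-fold higher (2.82 to 4.18). Mcl1, another survival gene of the family, was at 365, 457 and 358 CPM and differed little, with a ratio of 0.979. Of 11 receptors for survival cytokines 4 were higher and none lower. Il2rb, the shared chain of the interleukin-2 and interleukin-15 receptors, was at 130, 519 and 714 CPM, or 5.49-fold higher (5.22 to 5.77). Il18rap, part of the interleukin-18 receptor, was at 18.2, 70.6 and 106 CPM, or 5.81-fold higher (5.09 to 6.67). Il7r, the receptor chain that keeps naive and memory T cells alive, was at 545, 764 and 1059 CPM and just under the limit at 1.94-fold (1.89 to 1.99).

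**Figure D2:**
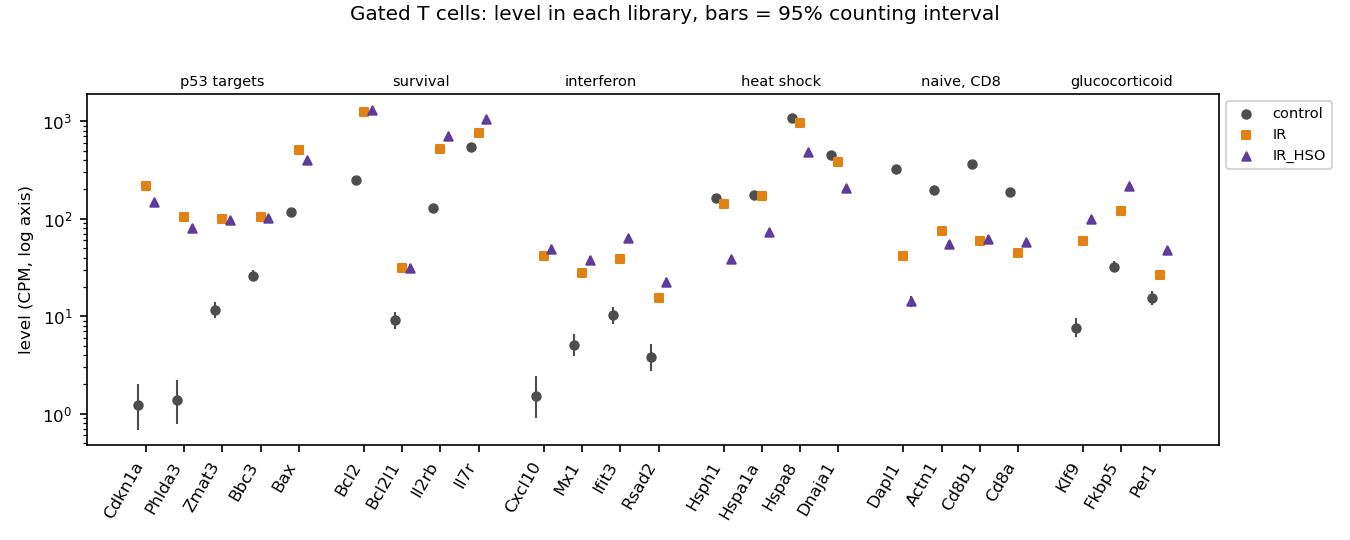
Level of named genes in the gated T cells of the control (circles), IR (squares) and IR_HSO (triangles) libraries in CPM on a log axis. Bars are 95% counting intervals, often smaller than the symbol. The IR_HSO level of Cdkn1a is 150 CPM against 1.22 CPM in control, and Hsph1 is at 38.4 CPM against 165 CPM.

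Interferon-response genes were higher in T cells for part of the list. Of 35 members 11 were higher and none lower, and the median log2 ratio was 0.67. Cxcl10, a chemokine that draws in CXCR3-bearing T cells, was at 1.53, 41.4 and 49.3 CPM, a ratio of 32.3 (20.8 to 53). Mx1, which blocks influenza-type viruses, was at 5.12, 27.7 and 37.8 CPM, or 7.38-fold higher (5.76 to 9.60). Ifit3 was at 10.2, 38.9 and 63.4 CPM, or 6.19-fold higher (5.19 to 7.44), and this gene has a close copy, Ifit3b, that could share its reads. Levels were highest in IR_HSO for these genes and lowest in control. Rsad2, the gene of the antiviral enzyme viperin, was at 3.82, 15.5 and 22.4 CPM, or 5.86-fold higher (4.39 to 7.98). Isg15, a ubiquitin-like protein, was at 38.7, 116 and 107 CPM, or 2.76-fold higher (2.51 to 3.04). Ifi209 and Gbp2 were within 2-fold and had log2 ratios of -0.55 and -0.39. Cxcl10 came from few cells: 2.84% of thinned IR_HSO T cells (2.45 to 3.27) had a UMI against 0.0834% (0.0101 to 0.301) in control. The share in B cells of IR_HSO was 0.633% (0.0160 to 3.48), whose interval spans the T cell share.

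Promoters of the called interferon genes were read for the core of the interferon-stimulated response element, a sequence through which interferons turn on genes. The letters searched were GAAANNGAAA on both strands, in RefSeq windows from 250 bases before to 50 bases after each start on GRCm38.p6. Of the 15 list members called in T or NK cells 9 had a window, and 7 of these, or 77.8%, held the core. It was present in 20 of 30 members with a window (66.7%) and in 1079 of all 27025 genes with a window (3.99%). A match is a description of the letters and not a bound site. The sequences of 6 of the 7 are shown, each 5′ to 3′ on the gene's strand, with the matching letters in capitals.
Cxcl10 (chr5:92349068-92349127, minus strand): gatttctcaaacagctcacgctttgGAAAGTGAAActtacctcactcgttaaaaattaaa
Ifit1 (chr19:34640760-34640838, plus strand): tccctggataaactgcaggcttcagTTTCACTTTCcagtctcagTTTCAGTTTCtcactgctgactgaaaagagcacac
Ifit3 (chr19:34583348-34583441, plus strand): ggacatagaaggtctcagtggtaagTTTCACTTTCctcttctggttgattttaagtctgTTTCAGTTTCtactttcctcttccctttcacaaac
Isg15 (chr4:156200850-156200921, minus strand): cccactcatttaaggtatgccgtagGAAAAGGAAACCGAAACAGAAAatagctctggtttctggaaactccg
Rsad2 (chr12:26456538-26456597, minus strand): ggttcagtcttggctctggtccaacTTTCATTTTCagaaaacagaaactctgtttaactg
Slfn5 (chr11:82951922-82951981, plus strand): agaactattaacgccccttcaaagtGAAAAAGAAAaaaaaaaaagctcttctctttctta
Ifit1 and Ifit3 each held 2 separate matches, both read on the opposite strand. Isg15 held 3 matches that overlap in 1 run, and Cxcl10, Rsad2 and Slfn5 held 1 each. Printing was limited to stretches before the start of the gene, so the side on which these matches lie is not a result.

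Inflammatory and glucocorticoid-response genes were partly higher in T cells. Of 14 genes of the NF-kB list 4 were higher and none lower, with a median of 0.71. Bcl3, a nuclear partner of NF-kB, was at 11.8, 31.5 and 57.9 CPM, or 4.93-fold higher (4.17 to 5.85). Nfkbia, the inhibitor that NF-kB itself induces, was at 213, 435 and 419 CPM, or 1.97-fold (1.89 to 2.05). Of 15 genes responsive to glucocorticoids or FOXO factors 5 were higher and none lower, with a median of 0.59. Klf9, a transcription factor induced by glucocorticoids, was at 7.64, 59.0 and 99.3 CPM, or 13.0-fold higher (10.6 to 16). Fkbp5, a chaperone of the glucocorticoid receptor, was at 32.4, 120 and 216 CPM, or 6.68-fold higher (6.05 to 7.38). Per1, a clock gene with the same hormone response, was at 15.5, 26.6 and 47.4 CPM, or 3.05-fold higher (2.63 to 3.56). For these 3 genes the IR_HSO level was the highest of the 3 libraries. Tsc22d3, which encodes the glucocorticoid-induced leucine zipper GILZ, did not follow: it was at 292, 274 and 263 CPM, a ratio of 0.902 (0.867 to 0.938). Sgk1 had a log2 ratio of -0.90. Thinned shares of T cells with an Fkbp5 UMI were 2.92% (2.28 to 3.67) in control and 19.6% (18.7 to 20.6) in IR_HSO, against 2.53% (0.694 to 6.35) in B cells of IR_HSO.

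Several heat shock genes were lower in T cells of IR_HSO. Of 12 members 6 were lower and none higher, and the median log2 ratio was -1.0. Hsph1, a large chaperone of the Hsp110 class, was at 165 CPM in control, 143 in IR and 38.4 in IR_HSO, or 4.28-fold lower (3.97 to 4.61). Hspa8, the constitutive Hsp70 chaperone, was at 1077, 958 and 479 CPM, a ratio of 0.444 (0.434 to 0.455). Dnaja1, an Hsp70 partner, was at 454, 379 and 208 CPM, a ratio of 0.459 (0.442 to 0.476). In these genes IR stood near control and IR_HSO stood apart from both. Hspa1a, an inducible Hsp70 with a near-identical copy in Hspa1b, was at 177, 172 and 72.8 CPM, and Hspa1b at 283, 251 and 148 CPM. Hsp90ab1 was at 2967, 2806 and 1436 CPM, a ratio of 0.484 (0.477 to 0.491). The factor that drives them, Hsf1, was at 41.2, 39.8 and 40.3 CPM. The thinned share of T cells with an Hsph1 UMI was 14.2% (12.8 to 15.7) in control, 11.6% in IR and 3.40% (2.98 to 3.87) in IR_HSO. The B cell shares, at 13.7% (12.6 to 14.9), 7.66% (4.44 to 12.1) and 1.27% (0.154 to 4.5), are not comparable between libraries, since immunoglobulin took 3.95%, 57.7% and 53.3% of the UMIs there. With 1 library a group, the treatment and the handling of a suspension cannot be told apart for this list. The heat shock element GAANNTTCNNGAA, a motif chosen after these values were seen and searched on both strands, was in 3 of 11 list members with a promoter window (27.3%) and in 1 of the 5 called members with a window, against 0.662% of all genes.

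Immediate-early genes were mostly within 2-fold in T cells. Of 20 members 1 was higher and 3 were lower, and the median was -0.08. Fos, part of the AP-1 factor, was at 339, 341 and 150 CPM, a ratio of 0.443 (0.424 to 0.462), and Fosb at 204, 175 and 94.5 CPM, a ratio of 0.464 (0.439 to 0.490). Cd69, an early activation antigen that holds cells in tissue, was at 702, 576 and 347 CPM, a ratio of 0.494 (0.480 to 0.508). Within CD4 Foxp3- cells these 3 genes were under 2-fold, at log2 ratios of -0.94 for Fos, -0.91 for Fosb and -0.96 for Cd69. In CD8 cells they were past it, at -2.17, -2.20 and -1.23. Dusp1, a phosphatase of MAP kinases that glucocorticoids also induce, went the other way, at 120, 354 and 404 CPM, or 3.35-fold higher (3.18 to 3.53). Among 15 unfolded protein response genes 1, Atf6, was higher and none lower, with a median of -0.17.

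The mix of T cells differed between libraries. After thinning to 1000 UMIs, cells with Cd8a or Cd8b1 and no Cd4 made up 25.8% (24.1 to 27.6) of T cells in control, 5.18% (4.69 to 5.71) in IR and 6.01% (5.45 to 6.62) in IR_HSO. Cells with Foxp3 and neither Cd8 gene made up 2.42% (1.84 to 3.11), 4.21% (3.77 to 4.69) and 9.29% (8.60 to 10.0). Cells with Cd4 and neither Foxp3 nor Cd8 were 13.4%, 13.5% and 14.1%. Without thinning the CD8 share was 34.2%, 8.06% and 9.52% and the Foxp3 share 4.81%, 9.26% and 19.7%. The remaining T cells, which had none of these genes detected or both Cd4 and a Cd8 gene, were 58.4%, 77.1% and 70.6% after thinning. The shares are therefore rates of detection. Cells with a detected Cd8 gene and no Cd4 were a smaller part of both irradiated libraries, and the share with detected Foxp3 was highest in IR_HSO. These are shares of recovered cells, so they do not give numbers of cells in a spleen.

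**Figure D3:**
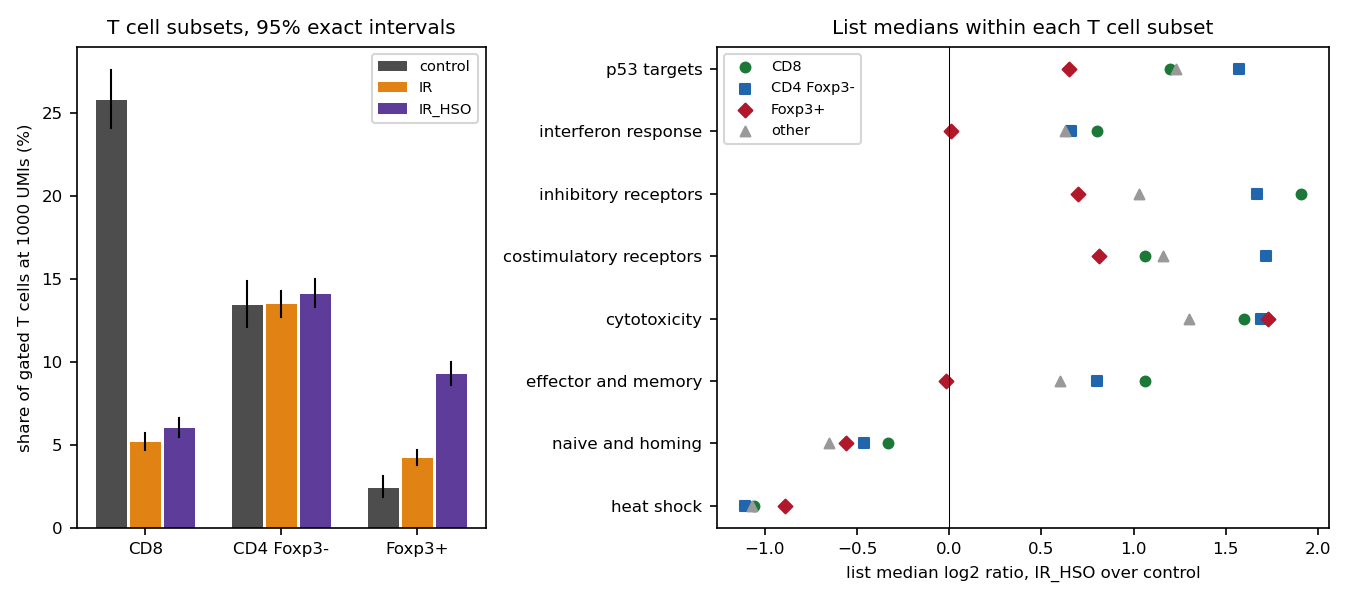
Left, share of gated T cells in the CD8, CD4 Foxp3- and Foxp3+ subsets after thinning to 1000 UMIs, as bars from 0 with exact 95% intervals, for the 3 libraries. The remaining T cells are not drawn there. Right, median log2 ratio of IR_HSO over control for 8 gene lists within each T cell subset, where heat shock lies between -1.11 and -0.89 in all 4 subsets and the interferon list is at 0.01 in Foxp3+ cells.

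Within the subsets most list results held their direction. The p53 targets had a median of 1.57 in CD4 Foxp3- cells, 1.20 in CD8 cells, 0.65 in Foxp3+ cells and 1.23 in the remaining T cells. Cdkn1a was 176-fold (68.4 to 650) higher in CD8 cells and 38.9-fold (10.7 to 322) in Foxp3+ cells, where control held 116 cells. Heat shock medians were -1.11, -1.06, -0.89 and -1.07. The interferon list had medians of 0.66, 0.80, 0.01 and 0.63. In Foxp3+ cells 3 of its 35 members were higher and 3 lower, against 422 and 124 of all 6502 genes there. Bcl2 was 6.93-fold (6.46 to 7.44) higher in CD4 Foxp3- cells and 2.16-fold (1.87 to 2.51) in Foxp3+ cells, in which its control level was 310 CPM against 199 CPM. Klf9 was higher in every subset, from 8.99-fold (6.48 to 12.7) in CD8 cells to 18.5-fold (11.9 to 30.5) in CD4 Foxp3- cells. Differences between subsets were not tested.

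Genes of regulatory T cells were higher as a list. All 11 measured members were higher in T cells, with a median of 2.29. Foxp3 was at 25.7, 46.9 and 114 CPM, or 4.42-fold higher (3.95 to 4.96). Ikzf2, which encodes the regulatory T cell factor Helios, was at 172, 344 and 636 CPM, or 3.70-fold higher (3.54 to 3.87). Il2ra, the high-affinity interleukin-2 receptor chain, was at 22.8, 88.8 and 126 CPM, or 5.52-fold higher (4.90 to 6.23). Each was lowest in control and highest in IR_HSO. Inside Foxp3+ cells, which the gate selects by Foxp3 itself, 2 of the 11 were higher, against 6.49% of all genes there, and the median was 0.27. In CD4 Foxp3- cells, which have no Foxp3 UMI, 9 of the 11 were higher, against 7.94% of all genes there, and the median was 2.11, and in CD8 cells the median was 2.44. A regulatory cell with an undetected Foxp3 transcript falls into the CD4 Foxp3- cells, and its part in these values was not tested.

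Receptors that tune T cell responses were higher in both senses. Of 10 costimulatory receptors and ligands 6 were higher and none lower, with a median of 1.73. Tnfrsf4, the costimulatory receptor OX40, was at 28.5, 139 and 284 CPM, or 9.97-fold higher (8.98 to 11.1). Its ratio was 13.3 (10.5 to 16.9) in CD4 Foxp3- cells and 2.99 (2.54 to 3.55) in Foxp3+ cells. Tnfsf4, the ligand of OX40, was at 0.306, 28.1 and 26.9 CPM, or 88.2-fold higher (34.3 to 325), from 4 UMIs in control. Tnfrsf9, the receptor 4-1BB, was at 18.8, 62.9 and 101 CPM, or 5.39-fold higher (4.73 to 6.17). Cd40lg, the helper ligand for B cells, was at 32.4, 31.8 and 16.4 CPM, a ratio of 0.506 (0.442 to 0.580). Of 11 inhibitory receptors and related genes 9 were higher and none lower, with a median of 1.49. Ctla4, which competes with Cd28 for its ligands, was at 36.6, 79.6 and 198 CPM, or 5.42-fold higher (4.94 to 5.97). Pdcd1, the receptor PD-1, was at 10.4, 14.2 and 40.7 CPM, or 3.92-fold higher (3.28 to 4.72). Tox, a nuclear factor of long-stimulated T cells, was at 103, 94.9 and 231 CPM, or 2.25-fold higher (2.12 to 2.39). For Pdcd1 and Tox the IR level lay close to control. The share of thinned cells with a Ctla4 UMI was 15.9% (15.0 to 16.8) in T cells of IR_HSO and 5.06% (2.21 to 9.73) in B cells.

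Part of the CD8 and naive genes were lower. Of 7 CD8 identity genes 3 were lower and none higher. Cd8b1, the beta chain of the CD8 co-receptor, was at 362 CPM in control, 58.8 in IR and 62.4 in IR_HSO, or 5.81-fold lower (5.49 to 6.14), and Cd8a was at 187, 44.2 and 57.8 CPM. Within CD8 cells, which these genes themselves select, the ratio was 0.497 (0.468 to 0.528) for Cd8b1 and 0.931 (0.870 to 0.995) for Cd8a, beside the smaller share of CD8 cells given above. Dapl1, a gene of resting CD8 and naive T cells, was at 322, 41.5 and 14.2 CPM, or 22.7-fold lower (20.5 to 25.3). The difference in Dapl1 was present inside CD8 cells, where control was at 447 CPM and IR_HSO at 25.9 CPM, and also inside CD4 Foxp3- cells, with log2 ratios of -4.11 and -3.77. Of 15 naive and homing genes 3 were lower and none higher, with a median of -0.54. Actn1, an actin crosslinker, was at 195, 75.6 and 54.6 CPM, or 3.56-fold lower (3.34 to 3.80). Lef1, a transcription factor of naive T cells, was at 590, 389 and 261 CPM, a ratio of 0.442 (0.428 to 0.456). The lymph node homing receptor gene Ccr7 was between the limits, with a log2 ratio of -0.54. Of 26 T cell receptor signalling genes 1, Icos, was higher and none lower, while Lck, the kinase that starts the signal, had a log2 ratio of -0.88.

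Most cytotoxic and NK receptor genes and part of the effector genes were higher in T cells. Of 24 effector and memory genes 10 were higher and none lower, with a median of 0.82. Bhlhe40, a transcription factor of activated T cells, was at 16.7, 122 and 156 CPM, or 9.34-fold higher (8.15 to 10.7). Prdm1, the gene of the effector factor Blimp-1, was at 5.12, 15.9 and 24.3 CPM, but its level in B cells of IR_HSO was 116 CPM, and plasma cell markers summed to 34.6, 190 and 201 CPM in the T cells. Of 13 cytotoxicity genes 8 were higher and none lower, with a median of 1.53. Gzmb, which encodes granzyme B, was at 7.18, 196 and 193 CPM, or 26.9-fold higher (21.9 to 33.3). The thinned share of cells with a Gzmb UMI was 8.94% (8.26 to 9.66) in T cells of IR_HSO and 0 of 158 B cells, with an upper limit of 2.31%. Gzma was at 56.1, 697 and 451 CPM, or 8.04-fold higher (7.46 to 8.68). For Gzma the thinned share in T cells of IR_HSO was 12.8% (12 to 13.6) and that in B cells 8.23% (4.45 to 13.7), so the share of cells with a UMI could not be told from free RNA. The Gzma level was 451 CPM in those T cells and 85.0 CPM in the B cells, and 10 T cells held 17.1% of the Gzma UMIs. Of 17 NK receptor genes 13 were higher and none lower, with a median of 1.81. NK cell markers summed to 410, 1623 and 1138 CPM in T cells. Those with a UMI of Ncr1, Klrb1c or Klrk1 were 8.26% in control, 34.1% in IR and 27.7% in IR_HSO, or 3.42%, 18.6% and 14.0% after thinning. Without all of these cells the NK receptor median became -0.67 over the 4 members still measured, and the cytotoxicity median 0.93.

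Most class II presentation genes were lower, and markers of B cells moved with it. Of 7 class II genes 5 were lower and none higher, with a median of -2.20. In CD8 cells 1 of the 7 was lower, against 1.40% of all genes there, with a median of -0.16, and in CD4 Foxp3- cells 5 were lower, against 1.38%, with a median of -3.53. H2-Ab1 was at 154, 29.1 and 17.1 CPM in T cells, or 9.01-fold lower (8.14 to 9.99), and at 3313 CPM in B cells of control. B cell markers summed to 83.4 CPM in control T cells and 17.4 CPM in IR_HSO, with 2 of 9 at 0 in both libraries, and 10 cells held 47.7% of the H2-Ab1 UMIs in control. The contribution of B cell RNA was not tested. Of 16 class I genes 2 were higher and none lower, with a median of 0.22. H2-Q6, which has close copies, was at 118, 204 and 344 CPM, and Nlrc5, the class I transactivator, at 59.0, 80.5 and 120 CPM.

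Lipid, antioxidant and energy genes lay mostly within 2-fold in T cells. Of 20 antioxidant genes 2 were higher, with a list median of 0.08. Gstp1, a glutathione transferase, was at 49.3, 39.2 and 147 CPM, or 2.99-fold higher (2.75 to 3.25), with IR below control. Gsto1 was at 9.01, 15.6 and 22 CPM, or 2.44-fold higher. Of 15 genes of fatty acid oxidation 2 were higher, with a median of 0.33, and Cpt1a, which lets long-chain fatty acids into mitochondria, was at 13.2, 25.6 and 27.4 CPM, or 2.07-fold higher (1.75 to 2.46) and under 2-fold after centring, at a log2 ratio of 0.89. Of 14 genes of fatty acid and sterol synthesis 2 were higher, with a median of 0.18. Abca1, the cholesterol exporter, was at 7.41, 22.3 and 41.6 CPM, or 5.62-fold higher (4.56 to 6.98). The synthesis enzymes Cyp51 and Fdps had log2 ratios of -0.79 and -0.59, short of 2-fold. None of 31 nuclear genes of oxidative phosphorylation reached 2-fold, with a median of 0.09, and 1 of 14 glycolysis genes did: Hif1a, the oxygen-sensing factor, at 83.9, 121 and 200 CPM. Of 17 proliferation genes 3 were higher, among them Mki67 at 26.3, 125 and 59.3 CPM. None of these lists had a lower member in T cells. After centring, the antioxidant median was -0.08 and the oxidative phosphorylation median -0.06. With variable transcripts out of the totals, where members newly past 20 CPM can enter, the synthesis median was -0.06. These medians therefore give no direction.

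**Figure D4:**
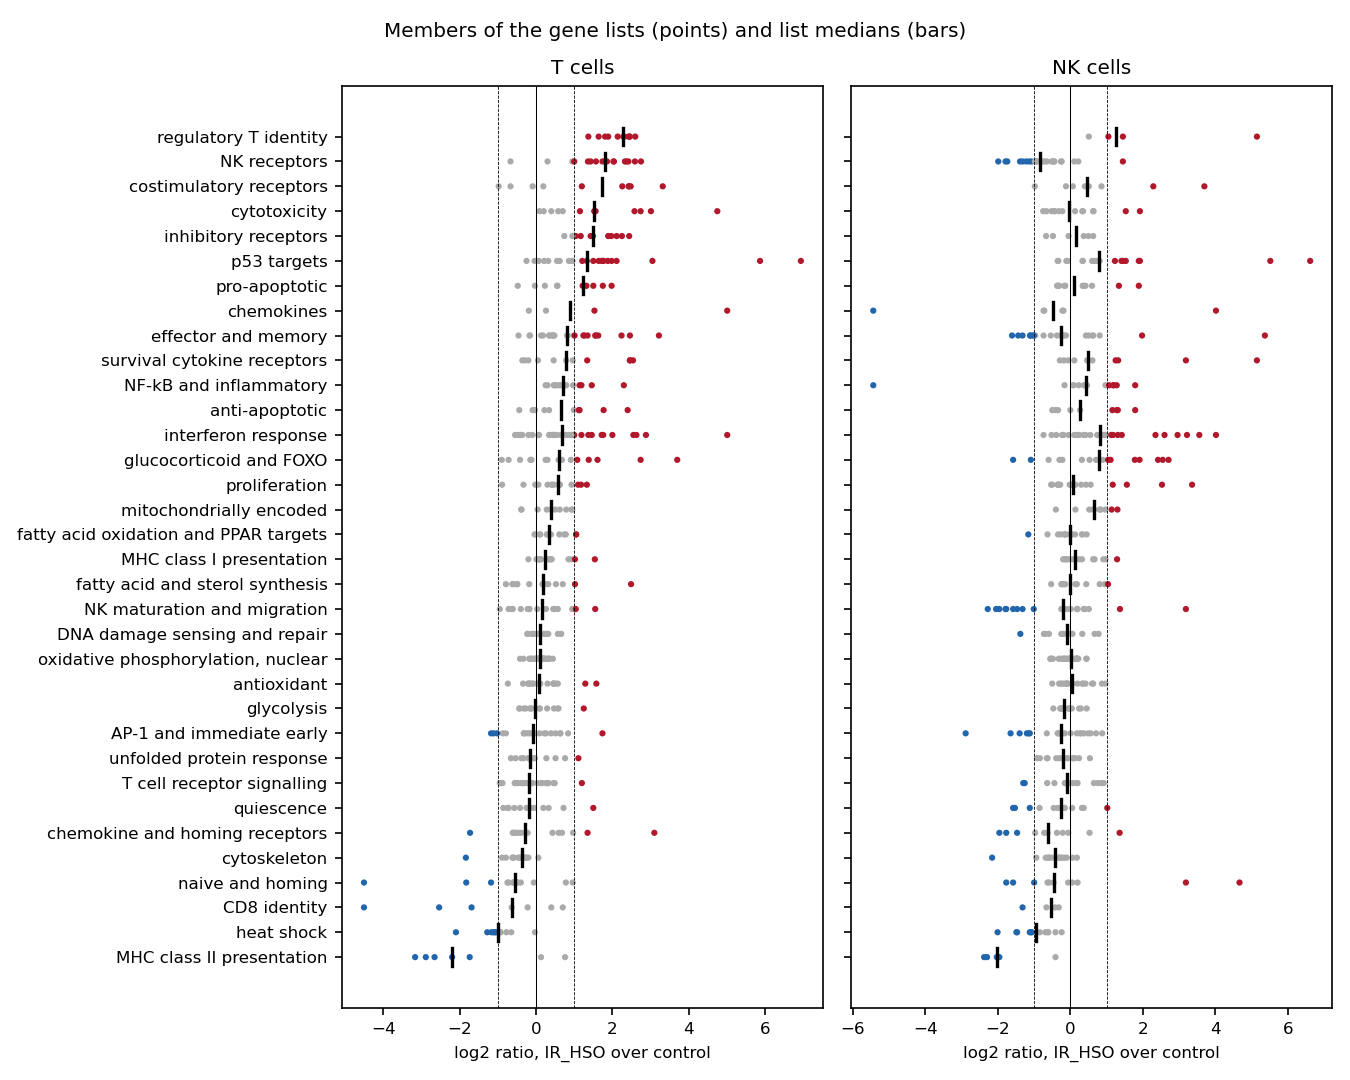
Log2 ratio of IR_HSO over control for each measured member of the gene lists (points) and the list medians (black bars), in T cells (left) and NK cells (right). Red and blue points are past 2-fold. Regulatory T identity has the highest median in T cells at 2.29 and class II presentation the lowest at -2.20, while NK receptors are at 1.81 in T cells and -0.84 in NK cells.

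Among the genes with the largest ratios in T cells, several came from few cells. Dcn, a matrix proteoglycan of fibroblasts, was at 0.0764, 136 and 59.9 CPM, a ratio of 785 (141 to 31010) from 1 control UMI, and 10 cells held 72.4% of its UMIs. T cells whose pancreatic, stromal or neutrophil transcripts passed limits given in the processing section numbered 77 in IR_HSO and 11 in control. Without them, control had no Dcn UMI. The Dcn ratio was then 57.7 with control set to 3 counts, with a lower 95% limit of 46.7. Mgp, another matrix gene, moved from 467 to 150 (26.7 to 5948), each from 1 control UMI, and the metallothionein gene Mt1 from 72.0 to 36.5. Lyz2, the lysozyme gene of myeloid cells, was at 74.2, 0.972 and 0.663 CPM, and 10 control cells held 91.9% of its UMIs. Genes spread over many cells kept their ratios: Psrc1, a spindle protein, was at 0.840, 67.8 and 53.9 CPM, or 64.2-fold higher (35.8 to 129) and 63.8-fold without those cells. Serpine2, a protease inhibitor, was at 0.993, 61.2 and 50.3 CPM, or 50.7-fold higher (29.5 to 95.4). Neutrophil markers summed to 44.5, 13.6 and 228 CPM in T cells. Over all calls, 472 of the 477 higher and all 81 lower genes stayed past 2-fold without the cells past the limits. Cells with fewer foreign transcripts stayed in, and the median IR_HSO T cell held 2 pancreatic UMIs. Among lower genes, Gm12840, an unnamed transcript, was at 188, 114 and 18.1 CPM, or 10.4-fold lower (9.40 to 11.4), and Tuba1a, an alpha-tubulin gene, at 81.0, 60.6 and 22.6 CPM, or 3.59-fold lower (3.25 to 3.97).

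In NK cells part of the p53 targets were higher in IR_HSO. Of 18 p53 targets 8 were higher and none lower, with a median of 0.78. Cdkn1a was at 4.67, 194 and 215 CPM, a ratio of 46.0 (19.6 to 142). Phlda3 was at 0.934, 102 and 91.6 CPM, a ratio of 98.1 (17.5 to 3885) from 1 control UMI. Bax was at 121, 469 and 449 CPM, or 3.70-fold higher (3.10 to 4.45). Psrc1 had no UMI in control and 138 in IR_HSO, a ratio of 11.5 with control set to 3 counts. Serpine2 was at 2.80, 244 and 220 CPM, a ratio of 78.3 (26.7 to 381). For these genes IR and IR_HSO lay close together and far from control. Bbc3 was at 48.6, 74.2 and 73.5 CPM in NK cells, under 2-fold at 1.51 (1.13 to 2.07). Of 12 pro-apoptotic genes 2 were higher and none lower, with a median of 0.10. Of 13 repair genes 1 was lower, Xrcc4, a partner of DNA ligase IV, at 30.8, 23.6 and 11.9 CPM. Bcl2 was at 330, 1052 and 1137 CPM, or 3.45-fold higher (3.10 to 3.85), 1 of 4 higher genes among 9 anti-apoptotic ones.

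Some NK receptor and maturation genes were lower, while most members of both lists lay within 2-fold. Of 24 NK receptor genes 8 were lower and 1 higher, with a median of -0.84. Klre1, a lectin-like receptor that pairs with Klri proteins, was at 1375, 845 and 412 CPM, or 3.34-fold lower (3.11 to 3.58). Klrg1, an inhibitory receptor of mature cells, was at 94.3, 45.8 and 23.7 CPM, or 3.98-fold lower (2.99 to 5.29). Klra4 and Klra8, Ly49 receptors that read class I molecules, were at 1119, 821 and 506 CPM and at 820, 580 and 389 CPM, and the likeness of Ly49 genes makes the split of their reads uncertain. With variable transcripts out of the totals, Klra4 and Klra8 had log2 ratios of -0.99 and -0.92 and Tbx21, described next, of -0.86, all short of 2-fold. IR lay between control and IR_HSO in each. Klrb1b, an inhibitory receptor for Clr-b, was the higher member, at 87.8, 140 and 240 CPM, or 2.74-fold (2.22 to 3.42). Of 22 maturation and migration genes 9 were lower and 2 higher, with a median of -0.19, near the -0.10 of all genes. Zeb2, a factor of terminal maturation, was at 935, 464 and 225 CPM, or 4.15-fold lower (3.79 to 4.54). S1pr5, the receptor that lets NK cells leave tissue, was at 250, 121 and 64.2 CPM, or 3.90-fold lower (3.28 to 4.63). Cma1, a chymase gene, was at 236, 118 and 48.6 CPM, or 4.86-fold lower (4.03 to 5.87). Eomes was at 415, 275 and 166 CPM, or 2.49-fold lower, and Tbx21, the gene of T-bet, at 259, 168 and 128 CPM, or 2.02-fold lower (1.74 to 2.33). Emb, the adhesion protein embigin, was at 200, 290 and 517 CPM, or 2.59-fold higher (2.25 to 2.99).

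**Figure D5:**
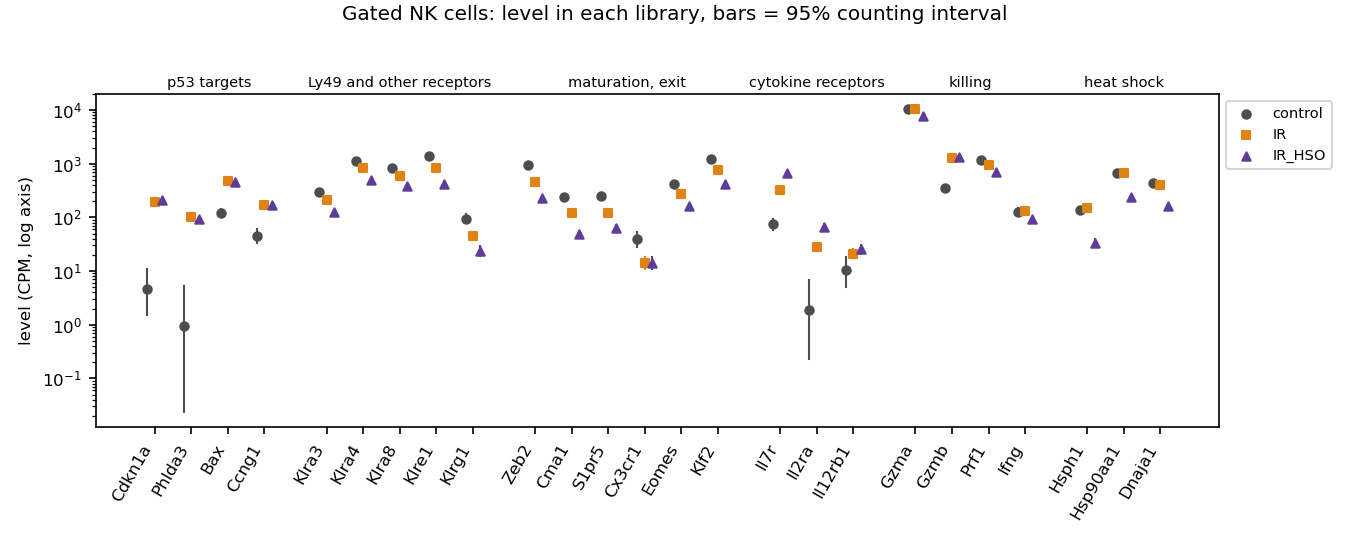
Level of named genes in the gated NK cells of the control (circles), IR (squares) and IR_HSO (triangles) libraries in CPM on a log axis, with 95% counting intervals as bars. Klre1 is at 412 CPM in IR_HSO against 1375 CPM in control and Il7r at 684 CPM against 74.7 CPM.

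Cytokine receptors in NK cells were higher for part of the list, and the gate held a different mix of cells. Of 11 receptors 4 were higher and none lower. Il7r, which marks immature NK cells and innate lymphoid cells, was at 74.7, 323 and 684 CPM, or 9.15-fold higher (7.33 to 11.6). Il2ra was at 1.87, 28.0 and 66.5 CPM, a ratio of 35.6 (9.77 to 295) from 2 control UMIs. The thinned share of NK cells with an Il7r UMI was 4.02% (1.94 to 7.26) in control, 17.0% (15.1 to 19.2) in IR and 30.9% (28.0 to 33.9) in IR_HSO, against 5.70% (2.64 to 10.5) in B cells of IR_HSO. Cells with a Gzma UMI were 91.6%, 83.6% and 71.3%, and cells with an Eomes UMI 27.3%, 22% and 15.8%. Without Il7r cells, Zeb2 had a log2 ratio of -1.53 in place of -2.05, Klre1 -1.40 in place of -1.74 and S1pr5 -1.38 in place of -1.96. Ikzf2, at 40.2, 54.9 and 83.0 CPM, went from a log2 ratio of 1.05 to -0.06. Eomes, Klra4, Klra8, Tbx21 and Klrb1b passed under 2-fold in these cells, at log2 ratios of -0.90, -0.67, -0.61, -0.93 and 0.58. The interferon median went from 0.83 to 0.27.

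Killing genes of NK cells differed among themselves. Of 14 cytotoxicity genes 2 were higher and none lower, with a median of -0.05 that became 0.05 after centring. Gzmb was at 347, 1301 and 1313 CPM, or 3.78-fold higher (3.40 to 4.21). Prf1, which encodes perforin, was at 1163, 957 and 692 CPM, a ratio of 0.595 (0.557 to 0.637), and Gzma at 10380, 10419 and 7693 CPM, a ratio of 0.741 (0.725 to 0.757). Neither passed 2-fold. Ifng was at 124, 129 and 91.2 CPM. Of 25 effector and memory genes 7 were lower and 2 higher. Lgals1, the gene of galectin-1, was at 1386, 1174 and 455 CPM, or 3.05-fold lower, and Vim, the filament protein vimentin, at 612, 467 and 225 CPM, or 2.72-fold lower. Ly6a, the antigen Sca-1, was at 1.87, 61.6 and 77.2 CPM, a ratio of 41.3 (11.4 to 343). Without cells past the limits for pancreatic, stromal or neutrophil transcripts it was 29.3, and B cells of IR_HSO stood at 976 CPM. Serpina3f, a serpin induced by interferon, was at 4.67, 77.0 and 190 CPM, a ratio of 40.7 (17.4 to 126), with 105 CPM in B cells of IR_HSO.

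Interferon, hormone and stress lists in NK cells followed. Of 31 interferon genes 10 were higher and none lower, with a median of 0.83. Slfn5, whose promoter is printed above, was at 5.60, 21.9 and 52.1 CPM, or 9.30-fold higher (4.20 to 25.6). Ly6e, a membrane protein that limits viral entry, was at 495, 862 and 1086 CPM, or 2.19-fold higher. Iigp1, an interferon-induced GTPase, had no UMI in control and was at 33.0 CPM in IR_HSO, or at least 11.8-fold higher, although 10 cells held 73.9% of its UMIs. Of 16 glucocorticoid and FOXO genes 7 were higher and 2 lower, with a median of 0.80. Klf9 was at 14.9, 48.8 and 87.7 CPM, or 5.87-fold higher (3.57 to 10.4), and Fkbp5 at 60.7, 158 and 208 CPM, or 3.42-fold higher (2.66 to 4.48). Klf2, which controls exit from lymphoid tissue, was at 1237, 776 and 413 CPM, or 2.99-fold lower. Of 12 heat shock genes 6 were lower and none higher, with a median of -0.95. Hsph1 was at 135, 149 and 33.7 CPM, or 4.02-fold lower, and Hsp90aa1 at 668, 664 and 237 CPM, or 2.82-fold lower. As in T cells, IR stood near control for both. Of 22 immediate-early genes 6 were lower and none higher, with Egr3 at 22.4, 8.83 and 3.02 CPM and Fosb at 206, 107 and 65.6 CPM. Few control cells carried these levels: 10 cells held 100% of the Egr3 UMIs and 38.0% of the Fosb UMIs. For Nr4a3, another lower member, 10 cells held 94.4%, and its log2 ratio went from -1.15 to -0.60 with equal weight per cell. Lipid lists had few calls, and those rested on few UMIs. Srebf1, a regulator of fatty acid synthesis, was higher at 12.1, 17.0 and 24.9 CPM, a log2 ratio of 1.04 from 13 control UMIs. Ppard, a fatty acid sensor, was lower at 23.3, 14.3 and 10.5 CPM, a log2 ratio of -1.16 from 25 control UMIs. Srebf1 was under 2-fold in 3 alternative settings and Ppard in 2. None of 19 antioxidant genes and none of 31 nuclear oxidative phosphorylation genes passed 2-fold in NK cells. Of 11 mitochondrially encoded genes 2 were higher and none lower, with a median of 0.65. Among them, mt-Nd5 went from a log2 ratio of 1.14 to 0.96 in cells under 5% mitochondrial UMIs.

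Calls in NK cells rested on fewer cells than those in T cells. For the median called gene, 10 cells held 17.4% of the UMIs of a higher gene and 37.8% of those of a lower gene, against 3.91% and 5.86% in T cells. Among genes with the largest ratios, Cxcl2, a chemokine gene of myeloid cells, had 100% of its control UMIs in 10 cells. Plpp3, a lipid phosphatase, had no UMI in control and 141 in IR_HSO, all in 10 cells. Without the 19 IR_HSO NK cells past the limits for pancreatic, stromal or neutrophil transcripts, 318 of 330 higher and 234 of 253 lower genes stayed past 2-fold. Plpp3 did not, at a ratio of 0.435 with control at the floor of 3 counts. NK cells with fewer such transcripts stayed in, and the median IR_HSO NK cell held 2 pancreatic UMIs. Stromal markers summed to 43.9 CPM in NK cells of control, with 6 of 7 at 0, and to 277 CPM in IR_HSO, with none at 0. Myeloid markers, several of which NK cells themselves express, summed to 3033 CPM and 1658 CPM. Their part in the other calls was not tested.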

How the data were processed

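The authors deposited raw UMI counts per gene and cell barcode for 3 spleen libraries, which name Cell Ranger 7.0.1 in their headers. The build was GRCm39, per the submitters' processing notes. Totals per library were 47298108 (control), 50836313 (IR) and 45636807 (IR_HSO). Cells with at least 500 UMIs, at least 200 genes and a mitochondrial share under 10% were kept and gated by raw UMIs with Python 3.11.15 and scipy 1.17.1. UMIs were summed per gate and library and scaled to CPM of all UMIs in the gate. A ratio has an exact conditional 95% interval, and a side without UMIs was set to 3 counts. Shares have exact binomial 95% intervals after thinning each cell to 1000 UMIs. The ratio code was tested on simulated data.

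The comparison, the 34 gene lists and the alternatives were chosen with earlier results of these data known. Named genes were, per gate, the 12 higher and 12 lower genes whose interval lay farthest from 1, the same among genes at least 2 times above B cells, up to 5 members per list plus those needed to say which moved, and genes called in opposite directions. Further list members, such as Mdm2, Mcl1 and Tsc22d3, were named after their values were seen. Doublets were left in and removed by a score as an alternative. B cells in IR_HSO held 53.3% immunoglobulin UMIs, which lowers their CPM and thinned shares of other genes. Promoter sequences are from RefSeq on GRCm38.p6, not the authors' build. The deposited counts carry no coordinates.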

Additional observations from a re-analysis of the deposited data

Results flagged for a closer look

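Of 6011 genes measured in both T and NK cells, 4 were higher in T cells and lower in NK cells and 1 the reverse, and the difference between the cell types was not tested. Klf10 had log2 ratios of 1.23 in T cells and -1.16 in NK cells, Klra4 of 2.04 and -1.14, Klra8 of 2.33 and -1.07, and Tbx21 of 1.01 and -1.01. Centred on the median gene, Tbx21 was under 2-fold in both, at 0.85 and -0.91, and it was so in 8 settings in T cells and 6 in NK cells. Klra4 and Klra8 in NK cells were under 2-fold with variable transcripts out of the totals, at -0.99 and -0.92. The gene ENSMUSG00000121137, which has no symbol in the files, had log2 ratios of -1.92 in T cells and 1.45 in NK cells. Its NK value rested on 9 control UMIs, and 10 cells held 28.3% of its UMIs in NK cells of IR_HSO. Pancreatic transcripts, which took no part in the comparison, stood at 1339 CPM in T cells of IR_HSO and 2.98 CPM in control. Barcodes with 10% or more mitochondrial UMIs, which were left out, made up 16.5% of IR_HSO and 3.75% of control.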

How the results depend on the processing

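In T cells the number of higher genes stayed within 1.5 times of 477 in 17 of 21 alternatives, from 370 to 563, and that of lower genes within 1.5 times of 81 in 14 of 21, from 75 to 98. In NK cells the higher genes stayed so in 12 of 18, from 258 to 407, and the lower genes in 13 of 18, from 191 to 266. Higher and lower genes in T cells numbered 227 and 53 at a minimum of 50 CPM, 1128 and 204 at 5 CPM, and 1049 and 284 at 1.5-fold. In NK cells the same settings gave 139 and 112, 1036 and 662, and 755 and 869. With the variable transcripts, whose classes are named above, out of the totals, T cells had 131 lower and NK cells 622 higher genes. Both counts can include genes that newly passed 20 CPM in that setting. Centring on the median gene gave 134 lower genes in T cells. Genes at least 2 times above B cells gave 40 lower in T cells and 141 lower in NK cells. With B cells scaled without immunoglobulin, a setting chosen after seeing the data, T cells kept 302 and 39 calls and NK cells 158 and 134. Asking that the interval lie beyond 1.5-fold left 217 higher in NK cells. Among list medians and named genes at 2-fold or beyond, 1 of each changed sign: NK receptors in T cells to -0.67 without T cells holding an NK receptor, and Ikzf2 in NK cells to -0.06 without Il7r cells, both settings chosen after seeing the data. The first of these settings removes cells by members of its own list. Of 119 named genes past 2-fold in T cells 22 were under it in at least 1 alternative, and in NK cells 24 of 109. No paired analysis was possible because each group had 1 library. Depth limits NK cells most, since control held 256 cells and 1070758 UMIs.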
